A study of Mus musculus with 6 samples.

Results

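The genes described here are 10 components and readouts of the Notch pathway, chosen by symbol: the receptors Notch1, Notch2, Notch3 and Notch4, the ligands Dll1, Jag1 and Jag2, the DNA-binding effector Rbpj, and the target genes Hes1 and Dtx1. They are 10 of the 24063 gene symbols counted in all 6 libraries, and 9 of them had enough counts to be tested. RNA was sequenced from mouse LSK cells, the lineage-negative, Sca-1-positive, c-Kit-positive fraction of bone marrow that holds blood stem cells and early multipotent progenitors. 3 libraries were labelled Asxl2-/- and 3 wild type, all from C57BL/6 bone marrow of mice given pIpC, which mimics viral double-stranded RNA, and the titles name MX1CRE in both groups. In this model Cre is driven by the interferon-inducible Mx1 promoter, so pIpC switches on Cre in blood cells and in other interferon-responsive cells. Deletion of the floxed Asxl2 allele is therefore not restricted to stem cells, and both groups were exposed to pIpC and carried the Cre. Age and sex are not given in the labels.

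Notch receptors are single-pass membrane proteins that are activated when a Delta or Jagged ligand on a neighbouring cell pulls on them, after which the ADAM proteases and gamma-secretase release the intracellular domain. That fragment enters the nucleus, binds RBPJ and recruits Mastermind proteins to turn on targets such as the Hes and Hey repressors, Nrarp and Dtx1. In blood formation the pathway is best known for committing progenitors that have reached the thymus to the T lineage, while mature T cells are rare in an LSK gate.

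The libraries held 25528540 to 55032075 counts and 16467 to 17327 genes with a count. The deposited files were of 2 kinds. Asxl2-/- replicates 1 and 3 and wild type replicate 2 came as 1 count per transcript (gene-count files). Asxl2-/- replicate 2 and wild type replicates 1 and 3 came as 1 count per exon (exon-count files). A sum over exons can count a spliced read more than once, so the main fit carried the kind of file as a covariate. Levels of single libraries, and the sums, shares and ratios formed from them, were not adjusted for it. In the exon-count files exon 11 of Asxl2, the floxed exon, held 0.583% of the gene's exon counts in Asxl2-/- replicate 2 (28 of 4804, Wilson 95% interval 0.404 to 0.841, counting error only), against 10.3% and 12.0% in wild type replicates 1 and 3, while total Asxl2 counts were close in both groups (log2 fold change 0.11, edgeR adjusted p = 0.469). The 4 Y-linked genes examined had at most 2 counts in each Asxl2-/- library and 1026 to 4807 in each wild type library, and Xist had 49540 to 66689 and 590 to 3194, so genotype and sex cannot be told apart in any comparison that follows. Kit, which defines the gate, lay at 280 to 431 CPM in all 6 libraries, where CPM are counts per 1000000 counts of the TMM-normalised library size. Ly6a, which encodes Sca-1 and also defines the gate, lay at 52.6, 69.1 and 57.6 CPM in Asxl2-/- and at 40.5, 259.8 and 147.7 CPM in wild type (edgeR adjusted p = 0.187).

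Across all 14145 genes tested, 331 (2.34%) passed an adjusted p of 0.05 in edgeR's quasi-likelihood test, 288 higher in Asxl2-/- LSK cells (2.04%) and 43 lower (0.304%). Among the 9 tested Notch genes 2 passed, Notch3 and Jag2, both higher in Asxl2-/-, and none passed in the lower direction. At an unadjusted p of 0.05 the counts were 3 higher (Notch3, Jag1 and Jag2) and 1 lower (Notch4), beside 15.0% and 12.6% of all tested genes. A log2 fold change of at least 1 in either direction was fitted for 3 of the 9 (Notch3, Jag2 and, lower, Notch4), beside 10.1% of all tested genes. The median log2 fold change of the 9 genes was 0.28, against 0.00052 over all tested genes. The call for Notch3 or Jag2 was lost on leaving out single libraries, as given with each gene. The number of Notch genes called was 0 without Asxl2-/- replicate 1, Asxl2-/- replicate 3 or wild type replicate 3, 1 without Asxl2-/- replicate 2 or wild type replicate 2, and 2 without wild type replicate 1.

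**Figure D1:**
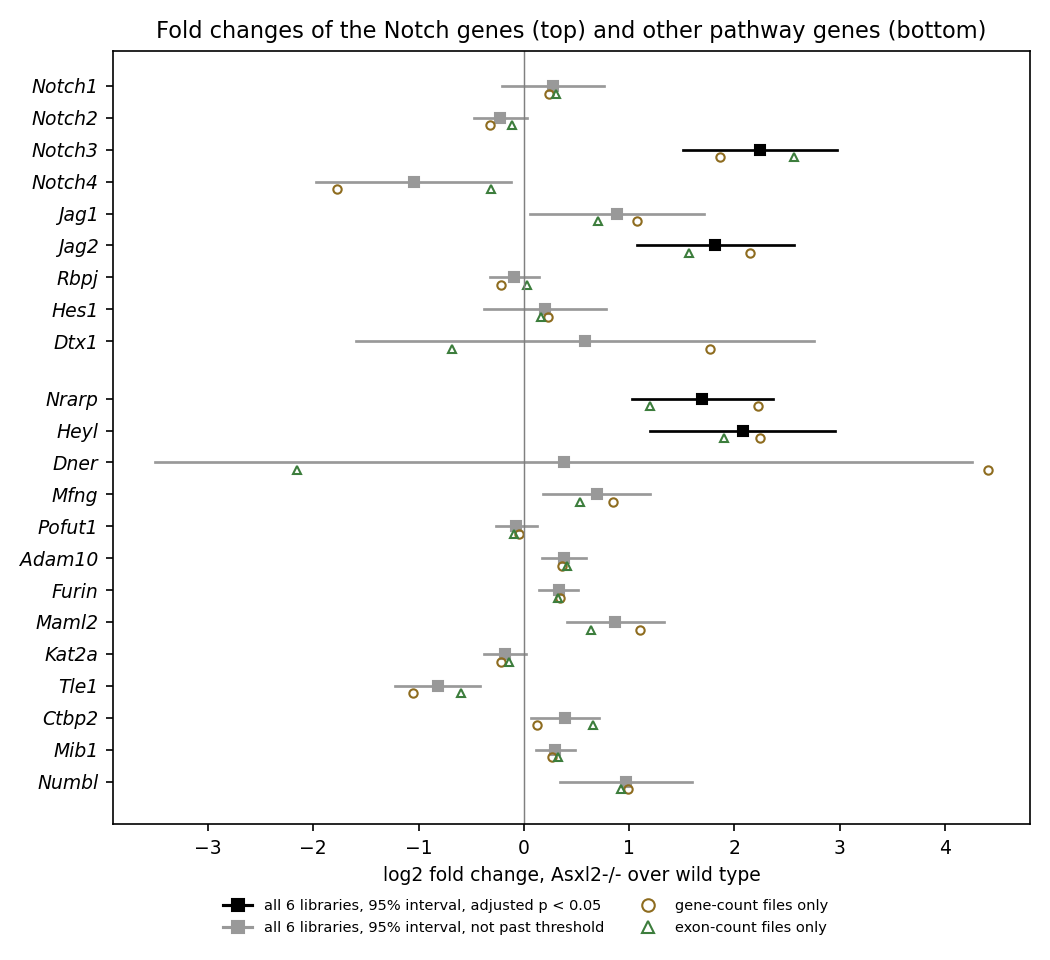
Log2 fold change of Asxl2-/- over wild type for the 9 tested Notch genes (top) and 13 other pathway genes (bottom). Squares with bars give the fit over all 6 libraries with its 95% interval, black where the adjusted p was under 0.05, and open circles and triangles give the value in the gene-count and exon-count files alone; Notch3, Jag2, Nrarp and Heyl are black and lie right of 0 in both kinds of file.

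The 2 called genes and the effector Rbpj are shown here with the DNA just before their start sites, because Jag2 and Notch3 were the genes that passed and Rbpj was the one Notch gene that carried the letters of an RBPJ core site. The sequences are from RefSeq, build GRCm38.p6 (equal to mm10), each 250 bases that end at the base before the annotated start, read 5′ to 3′ on the gene's strand. For Jag2 this is chr12:112929496-112929745 on the minus strand. For Notch3 it is chr17:32166891-32167140 on the minus strand, and this annotated start lies upstream of the 5′ end of the counted transcript, at 32166852. For Rbpj it is chr5:53590096-53590345 on the plus strand. Capitals mark the core TGGGAA on either strand.
Jag2: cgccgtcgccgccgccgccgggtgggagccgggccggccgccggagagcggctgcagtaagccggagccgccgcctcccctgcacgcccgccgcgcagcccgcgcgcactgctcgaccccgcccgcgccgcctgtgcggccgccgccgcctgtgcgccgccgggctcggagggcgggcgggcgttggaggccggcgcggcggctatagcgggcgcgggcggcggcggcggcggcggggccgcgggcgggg
Notch3: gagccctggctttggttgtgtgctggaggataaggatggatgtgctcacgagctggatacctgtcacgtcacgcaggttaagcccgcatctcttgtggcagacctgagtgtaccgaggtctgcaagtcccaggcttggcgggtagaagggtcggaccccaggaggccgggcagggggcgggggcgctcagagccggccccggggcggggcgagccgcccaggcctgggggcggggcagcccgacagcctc
Rbpj: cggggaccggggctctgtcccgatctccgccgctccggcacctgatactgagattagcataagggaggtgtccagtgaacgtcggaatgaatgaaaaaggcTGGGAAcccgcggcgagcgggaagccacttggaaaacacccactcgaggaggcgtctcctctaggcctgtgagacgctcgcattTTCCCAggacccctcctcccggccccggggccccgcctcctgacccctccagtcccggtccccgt
The core occurred in 21.6% of the 32851 promoter windows of this length in the table. Of the 9 Notch genes with a window, Rbpj alone had it, with 1 match that began 149 bases and 1 match on the other strand that began 65 bases before the start. TGTGGT, the core of the RUNX site, was searched on both strands after the expression values were known. It was in 14.0% of windows and in none of those of the Notch genes. Jag2 stood out in base composition, with 87.2% G and C against a median of 52.4%, and 14 windows (0.0426%) were at or above it. Hes1 had no entry in the table.

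Levels of different genes are given per length, as CPM per kilobase of the counted transcript. Notch2 was the most abundant of the 10 genes in every library, at 15.4, 15.2 and 16.2 CPM per kb in Asxl2-/- replicates 1 to 3 and 17.9, 19.7 and 15.1 in wild type replicates 1 to 3. Rbpj came next in every library, at 7.68 to 11.7 CPM per kb. Notch1 was the third in 5 libraries, at 4.05 to 9.15 CPM per kb. Notch1 and Jag2 traded places in Asxl2-/- replicate 2, where Jag2 had 6.53 and Notch1 5.77 CPM per kb. That library is the only exon-count file of its group, and these levels were not adjusted for the kind of file. The fitted log2 difference of exon-count over gene-count files was 0.45 for Jag2 and -0.40 for Notch1. The part of the kind of file in this order was not tested. Hes1 lay between 1.15 and 1.64 CPM per kb in all 6 libraries. Notch3, Notch4, Dtx1, Jag1 and Dll1 ranged from 0.00615 to 1.51 CPM per kb, and their order changed from library to library. Among these, Notch3 in Asxl2-/- replicate 2 (1.51) and Notch4 in wild type replicate 2 (1.48) came up to the level of Hes1.

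**Figure D2:**
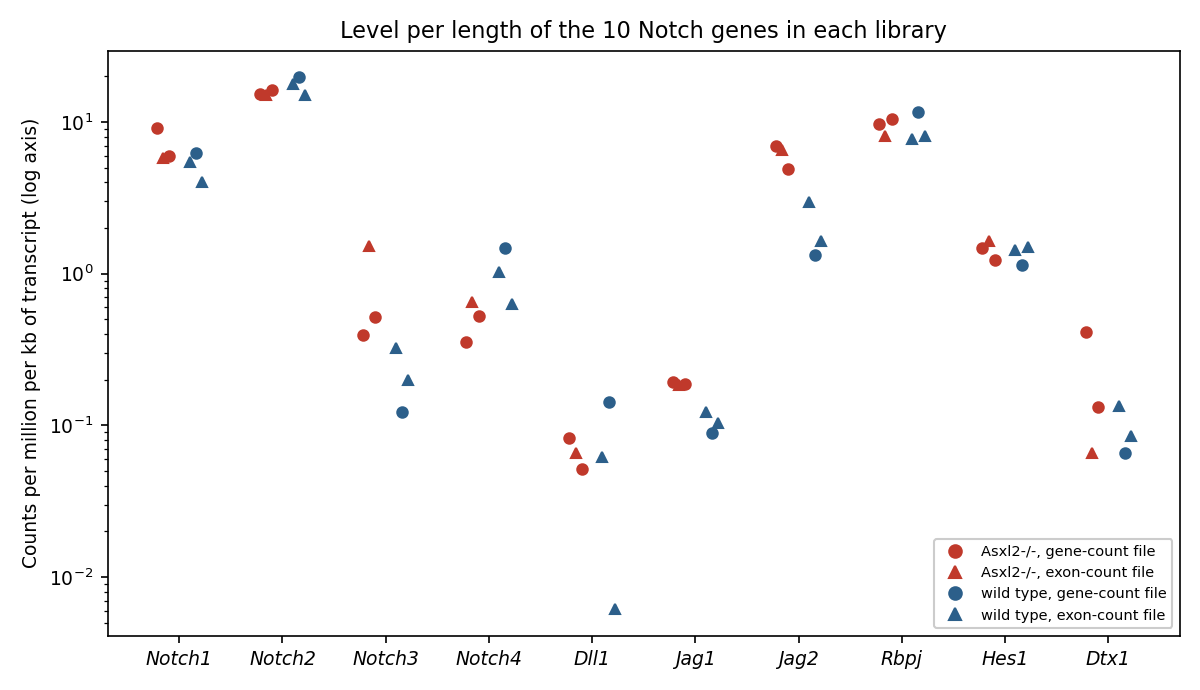
Level per length (CPM per kb of transcript, log axis) of each of the 10 Notch genes in each library, red for Asxl2-/- and blue for wild type, circles for gene-count and triangles for exon-count files. Jag2, Notch3 and Jag1 show 3 red points above all 3 blue points, and Notch2 is the highest gene in every library. By the looser measure within each kind of file, 48.6% of all tested genes did not overlap.

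Among the receptors, Notch3 was higher in Asxl2-/- LSK cells, while Notch1, Notch2 and Notch4 did not pass the test. Notch3 (NM_008716, chr17:32120893-32166852, minus strand, 33 exons in mm10) encodes the receptor best known from smooth muscle cells and pericytes of blood vessels, and is also used by developing T cells. It had 88, 640 and 116 counts in Asxl2-/- replicates 1 to 3 and 135, 28 and 75 in wild type replicates 1 to 3, or 3.12, 12.0 and 4.09 CPM against 2.59, 0.973 and 1.58 CPM. All 3 Asxl2-/- libraries lay above all 3 wild type libraries, although Asxl2-/- replicate 1 exceeded wild type replicate 1 only narrowly, and those are of different kinds of file. With the kind of file taken into account the level was 2.67 ± 0.28 log2 CPM in Asxl2-/- and 0.48 ± 0.40 in wild type (n = 3 each). The SD is that of the adjusted values, so it leaves out spread between libraries that the fit assigned to the kind of file. The log2 fold change was 2.24 (SE 0.30, 95% interval 1.51 to 2.97, 4.73-fold, edgeR adjusted p = 0.0279). Within the gene-count files alone the log2 fold change was 1.86, and within the exon-count files 2.56. The adjusted p stayed under 0.05 without wild type replicate 1 (0.0393) or 2 (0.0478), and rose to 0.0851, 0.0766 and 0.0771 without Asxl2-/- replicate 1, 2 or 3 and to 0.122 without wild type replicate 3, with log2 fold changes from 1.89 to 2.52.

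In the 3 exon-count libraries, Asxl2-/- replicate 2 had more Notch3 CPM per kb than both wild type libraries in 32 of the 33 exons. Exon 1 was the exception. The last exon held 16.9% of the Notch3 exon counts in Asxl2-/- replicate 2 (Wilson 95% interval 14.2 to 20.0), 17.0% in wild type replicate 1 (11.6 to 24.3) and 22.7% in wild type replicate 3 (14.7 to 33.3), so the counts were not confined to the end of the transcript in any library. Being 1 library against 2, these exon values carry no replicate check on the Asxl2-/- side.

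Notch4 (NM_010929, chr17:34564295-34588543, plus strand, 30 exons), a receptor mainly of endothelial cells, had the opposite sign. Its levels were 2.34, 4.28 and 3.45 CPM in Asxl2-/- and 6.83, 9.76 and 4.15 CPM in wild type, so the groups overlapped by 1 library on each side. The log2 fold change was -1.04 (SE 0.38, 95% interval -1.97 to -0.12), with an unadjusted p of 0.0329 in edgeR and an adjusted p of 0.15. Its size came mostly from the gene-count files, where it was -1.77, against -0.31 in the exon-count files. Without wild type replicate 2 it was -0.36 (adjusted p = 0.704) and without Asxl2-/- replicate 2 it was -1.75 (0.0532), with the other omissions between -0.83 and -1.30. By exon, Asxl2-/- replicate 2 was below both wild type libraries in 13 of 30 exons and above both in 4.

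Notch1 (NM_008714, chr2:26457902-26503822, minus strand, 34 exons), the receptor that drives T lineage commitment, lay at 86.9, 54.8 and 56.7 CPM in Asxl2-/- and at 51.5, 59.6 and 38.4 CPM in wild type. The groups overlapped, and Asxl2-/- replicate 1 was the highest. The log2 fold change was 0.28 (95% interval -0.20 to 0.76, edgeR adjusted p = 0.393). Notch2 (NM_010928, chr3:98013538-98150367, plus strand, 34 exons), the receptor known for its part in marginal zone B cells and in early stem cell recovery, lay at 161.3, 159.3 and 170.0 CPM in Asxl2-/- and at 187.7, 207.2 and 158.7 CPM in wild type. Its log2 fold change was -0.22 (95% interval -0.47 to 0.03, edgeR adjusted p = 0.219). This interval, from 4546 to 9784 counts per library, excludes a change of the size seen for Notch3 in either direction.

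The receptors were also expressed as shares of their summed level per length. The sum was 25.3, 23.1 and 23.2 CPM per kb in Asxl2-/- and 24.7, 27.6 and 20.0 in wild type, and the groups overlapped. Notch2 made up 60.8%, 65.6% and 69.8% of it in Asxl2-/- and 72.5%, 71.4% and 75.6% in wild type, and Notch1 36.2%, 25.0% and 25.8% against 22.0%, 22.8% and 20.2%. Notch3 accounted for 1.56%, 6.55% and 2.22% in Asxl2-/- and 1.32%, 0.444% and 0.997% in wild type. Notch4 accounted for 1.40%, 2.81% and 2.26% against 4.20%, 5.35% and 3.15%. None of these 4 shares overlapped between the groups, but they are parts of 1 total and were not tested. Lack of overlap was common: by the looser measure within each kind of file, the levels of 48.6% of all tested genes did not overlap. Per length, Notch3 was 1.11, 2.33 and 0.984 times Notch4 in Asxl2-/- and 0.315, 0.0828 and 0.317 times Notch4 in wild type. This ratio was formed after the values were seen and was not tested. Neither the shares nor the ratio were adjusted for the kind of file. The fitted log2 difference of exon-count over gene-count files was 1.45 for Notch3, -0.15 for Notch4, -0.40 for Notch1 and -0.16 for Notch2.

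**Figure D3:**
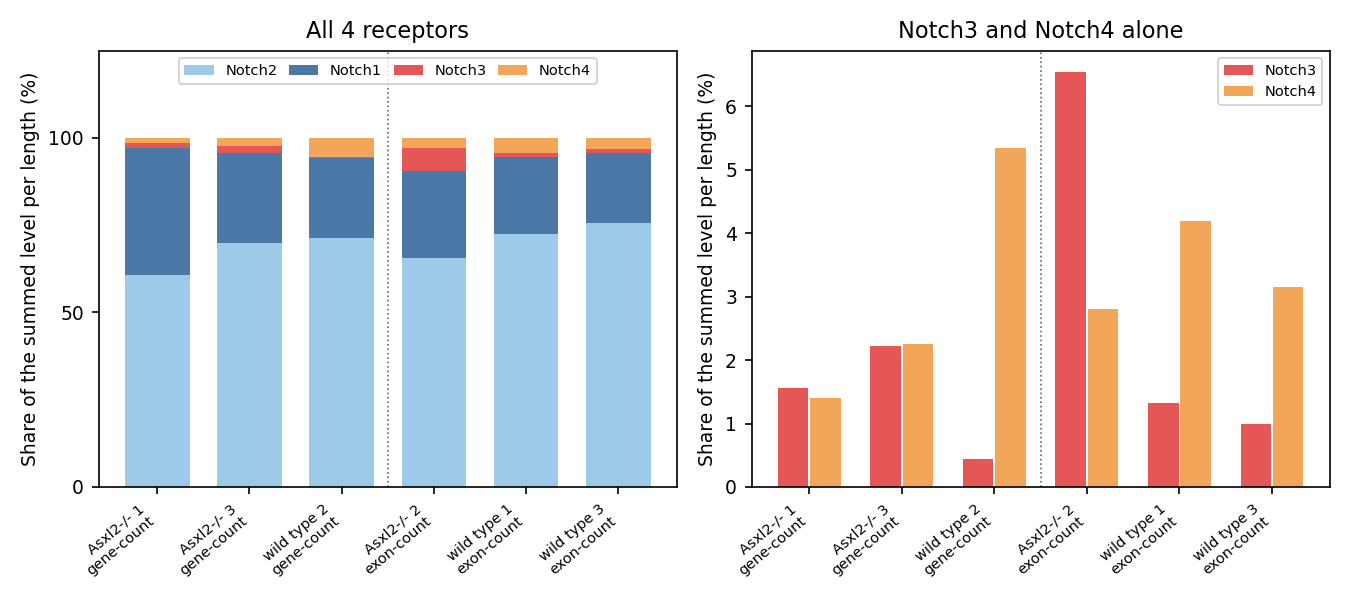
Share of each receptor in the summed level per length of the 4 Notch receptors (left), and the shares of Notch3 and Notch4 alone on a larger scale (right), for each library, with gene-count files left and exon-count files right of the dotted line. Notch2 and Notch1 fill most of every bar, and the Notch4 bar stands above the Notch3 bar in all 3 wild type libraries.

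Among the ligands, Jag2 was higher in Asxl2-/- LSK cells. Jag2 (NM_010588, chr12:112908590-112929495, minus strand, 26 exons) encodes Jagged 2, a membrane ligand of Notch receptors. It had 790, 1408 and 568 counts in Asxl2-/- and 625, 154 and 316 in wild type, or 28.0, 26.5 and 20.0 CPM against 12.0, 5.35 and 6.66 CPM. Every Asxl2-/- library was above every wild type library, in both kinds of file. The kind-adjusted level was 4.70 ± 0.29 log2 CPM in Asxl2-/- and 2.85 ± 0.45 in wild type (SD of the adjusted values, n = 3 each). This gave a log2 fold change of 1.82 (SE 0.31, 95% interval 1.07 to 2.57, 3.53-fold, edgeR adjusted p = 0.0462). Taken alone, the gene-count files gave 2.14 and the exon-count files 1.56. The adjusted p was 0.0409 without Asxl2-/- replicate 2 and 0.0277 without wild type replicate 1, and 0.126, 0.0895, 0.14 and 0.161 without Asxl2-/- replicate 1, Asxl2-/- replicate 3, wild type replicate 2 and wild type replicate 3, with log2 fold changes from 1.50 to 2.17. Scaling by library size alone (0.0667) or by TMM within each kind of file (0.0547) also raised it above 0.05.

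In all 26 exons of Jag2, Asxl2-/- replicate 2 had more CPM per kb than both wild type libraries of the same kind. The last exon held 12.4% of the Jag2 exon counts in Asxl2-/- replicate 2 (Wilson 95% interval 10.8 to 14.3), 11.8% in wild type replicate 1 (9.54 to 14.6) and 13.6% in wild type replicate 3 (10.3 to 17.8). These intervals overlap, and the first exon, next to the promoter shown above, held 6, 3 and 2 counts.

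**Figure D4:**
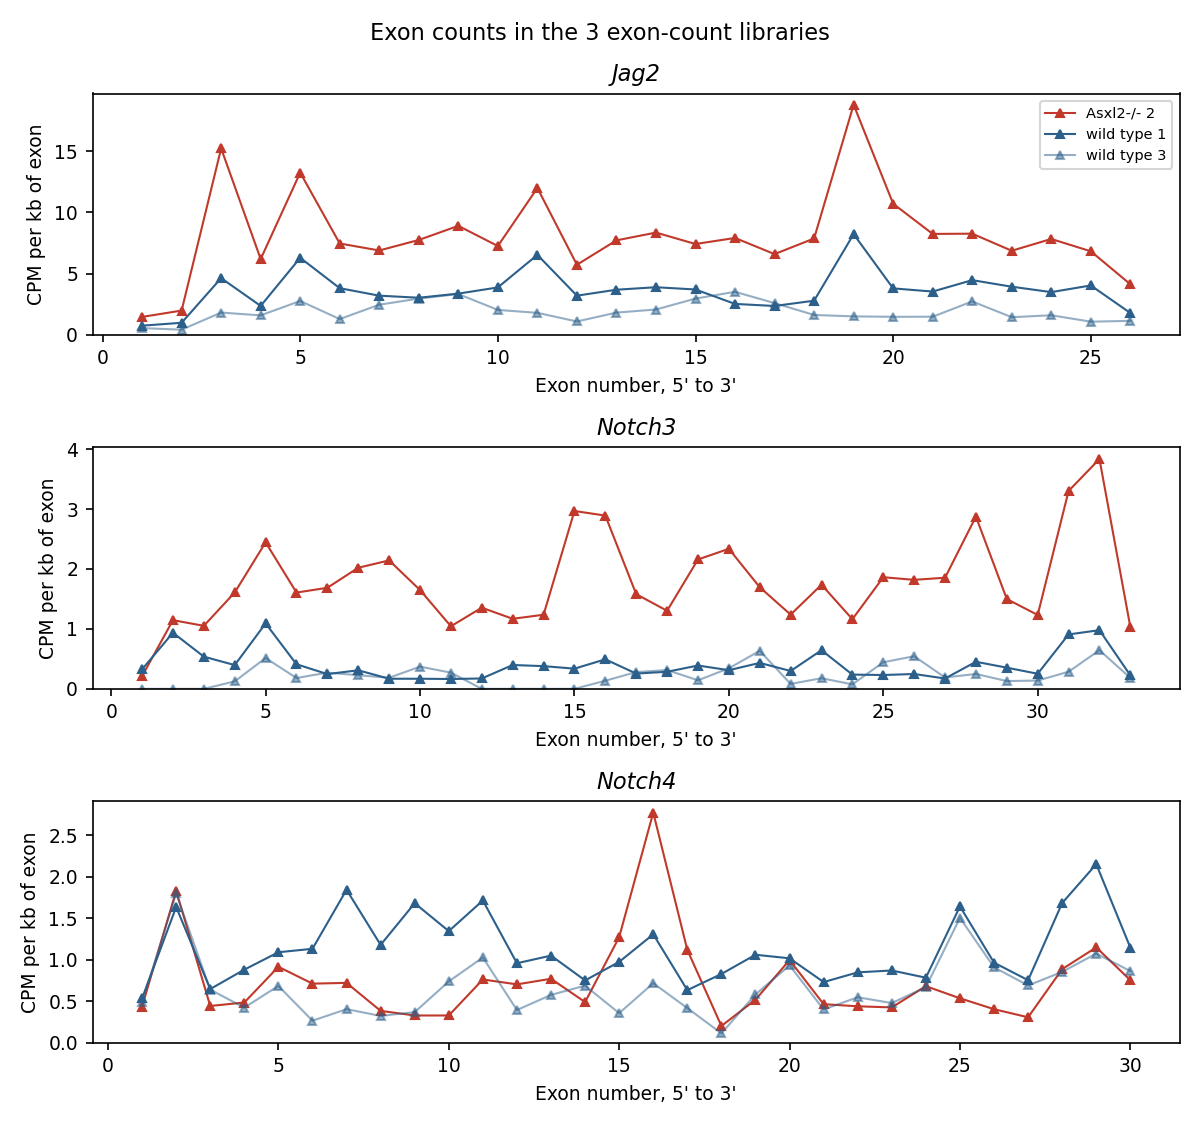
CPM per kb of each exon, numbered 5′ to 3′, of Jag2, Notch3 and Notch4 in the 3 exon-count libraries (1 Asxl2-/- in red, 2 wild type in blue). The red line is above both blue lines in 26 of 26 exons of Jag2 and 32 of 33 of Notch3, and crosses them in Notch4.

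Jag1 (NM_013822, chr2:137081451-137116520, minus strand, 26 exons), which encodes the ligand Jagged 1, was rare, with 29 to 54 counts in Asxl2-/- and 14 to 35 in wild type. At 1.06, 1.01 and 1.02 CPM against 0.672, 0.486 and 0.569 CPM the groups did not overlap. The log2 fold change was 0.89 (SE 0.34, 95% interval 0.06 to 1.71), with an unadjusted p of 0.0392 and an adjusted p of 0.162 in edgeR. Dll1 (NM_007865, chr17:15367354-15375823, minus strand, 11 exons), a Delta ligand, had 8, 12 and 5 counts in Asxl2-/- and 11, 14 and 1 in wild type and was below the filter on low counts, so a difference was not detectable at this depth. Taken over the 5 ligands of the Delta and Jagged families (Dll1, Dll3, Dll4, Jag1 and Jag2), the summed level per length was 7.30, 6.83 and 5.29 CPM per kb in Asxl2-/- and 3.20, 1.60 and 1.78 in wild type. Jag2 made up 94.7%, 95.6% and 93.5% of that sum in Asxl2-/- and 92.4%, 82.5% and 92.6% in wild type.

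Rbpj (NM_001277116, chr5:53590346-53657445, plus strand, 13 exons), the DNA-binding partner of the Notch intracellular domain, did not pass the test and showed the narrowest interval of the 9 genes. Its levels were 54.6, 45.2 and 58.6 CPM in Asxl2-/- and 42.9, 65.6 and 45.5 CPM in wild type. The groups overlapped, and the log2 fold change was -0.09 (SE 0.096, 95% interval -0.32 to 0.14, edgeR adjusted p = 0.568). Its sign turned positive with library size alone as the scaling (0.0083), without the file-kind covariate (0.041) and without wild type replicate 2 (0.036). 4 transcripts were listed for Rbpj and their totals were nearly equal, with 1537 to 1539 counts in Asxl2-/- replicate 1. The counts began in earnest at exon 4 of the longest transcript, while exons 2 and 3 had 0 or 1 count in the 3 exon-count libraries and exon 1 had 13, 8 and 13. Processed pseudogenes of Rbpj are annotated in the mouse genome, and how reads were split between them and the gene was not examined here.

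Neither target gene among the 10 passed the test. Hes1 (NM_008235, chr16:30065357-30067796, plus strand, 4 exons), a transcriptional repressor and a direct Notch target in many tissues, lay at 2.13, 2.39 and 1.80 CPM in Asxl2-/- and at 2.07, 1.67 and 2.19 CPM in wild type. The groups overlapped over all 6 libraries, and the log2 fold change was 0.20 (SE 0.24, 95% interval -0.38 to 0.78, edgeR adjusted p = 0.622). Dtx1 (NM_008052, chr5:120680264-120711669, minus strand, 10 exons), which encodes an E3 ubiquitin ligase, had 43, 13 and 14 counts in Asxl2-/- and 26, 7 and 15 in wild type. Asxl2-/- replicate 1 stood above the others, and the log2 fold change of 0.58 had a 95% interval from -1.59 to 2.76 (edgeR adjusted p = 0.707) and turned to -0.03 without that library and to -0.74 without wild type replicate 2. Within both kinds of file at once, the groups did not overlap for 4 of the 9 tested genes (Notch3, Jag1, Jag2 and Hes1), beside 48.6% of all tested genes, and all 4 were higher, beside 25.4% of all tested genes higher and 23.3% lower.

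The rest of the pathway was read from a list of 69 genes, of which 60 were tested. 2 passed, both higher and both targets, and none passed in the lower direction, beside 2.04% higher and 0.304% lower over all tested genes. At an unadjusted p of 0.05 in edgeR, 14 were higher and 2 lower, beside 15.0% and 12.6% of all tested genes, and the median log2 fold change was 0.06. Nrarp, a direct target whose protein binds the Notch intracellular domain and limits its activity, had 434, 475 and 388 counts in Asxl2-/- and 188, 89 and 199 in wild type. That is 15.4, 8.93 and 13.7 CPM against 3.61, 3.09 and 4.20 CPM, with no overlap, and a log2 fold change of 1.69 (SE 0.28, 95% interval 1.02 to 2.36, edgeR adjusted p = 0.0430). Heyl, a repressor of the Hey family and a target of Notch3 in smooth muscle, had 49, 83 and 68 counts against 26, 12 and 16. At 1.74, 1.56 and 2.40 CPM against 0.499, 0.417 and 0.337 CPM the groups did not overlap, and the log2 fold change was 2.08 (SE 0.36, 95% interval 1.20 to 2.95, edgeR adjusted p = 0.0493). Heyl passed on leaving out wild type replicate 1 (0.0400) and on no other such omission: the adjusted p was 0.149, 0.0763 and 0.112 without Asxl2-/- replicates 1, 2 and 3 and 0.154 and 0.192 without wild type replicates 2 and 3. The Heyl call was also lost with median-ratio scaling (0.0513), library size alone (0.0631), TMM within each kind of file (0.0552), only the longest exon counted (0.0507) and genes outside X and Y (0.0501). Nrarp passed without Asxl2-/- replicate 2 (0.0136) and wild type replicate 1 (0.0477), but not without Asxl2-/- replicate 1 (0.126), Asxl2-/- replicate 3 (0.0891), wild type replicate 2 (0.0775) or wild type replicate 3 (0.135), nor with library size alone (0.0598).

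By role, no gene outside the targets passed. Of the other ligands only Dner could be tested, at a log2 fold change of 0.38 with an SE of 1.60 (edgeR adjusted p = 0.903). Among 5 enzymes that add sugars to the receptors, Mfng, a Fringe glycosyltransferase, had the smallest p (0.69, SE 0.21, edgeR adjusted p = 0.110), and Pofut1, which adds O-fucose, followed at -0.07. Among 10 genes of receptor cleavage, Adam10, the protease of the ligand-dependent cut, was at 0.39 (SE 0.086, edgeR adjusted p = 0.0726) and Furin, which cleaves the receptor on its way to the surface, at 0.33 (SE 0.076, edgeR adjusted p = 0.0740). The intervals of Adam10 and Furin lay well under the changes of Notch3 and Jag2. Larger changes in this role were those of Aph1c at 0.87 (SE 0.21, edgeR adjusted p = 0.0779) and Psen2 at -0.58 (SE 0.14, edgeR adjusted p = 0.0822). Aph1b, at 0.57, was also larger but less certain (SE 0.30, edgeR adjusted p = 0.262). At an unadjusted p under 0.05 in edgeR, 3 of the 10 were higher and 1 lower, beside 15.0% and 12.6% of all tested genes.

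Of 7 nuclear coactivators, Maml2, a Mastermind protein, was at 0.87 (SE 0.19, edgeR adjusted p = 0.0693) and the acetyltransferase Kat2a at -0.18. Of 14 corepressors, Tle1, a Groucho protein, was the lowest at -0.82 (SE 0.17, edgeR adjusted p = 0.0614), and Ctbp2 was at 0.39. Of 13 regulators of ubiquitination and trafficking, Mib1, the ligase that drives ligand endocytosis, was at 0.30 (SE 0.076, edgeR adjusted p = 0.0860) and Numbl, related to the Notch antagonist Numb, at 0.97 (SE 0.26, edgeR adjusted p = 0.0914). Of the 10 tested targets beyond Hes1 and Dtx1, 4 had an unadjusted p under 0.05 in the higher direction and none in the lower, beside 15.0% and 12.6% of all tested genes. The 9 genes below the filter were Dll3, Dll4, Dlk1, Dlk2, Hes2, Hes3, Hes7, Hey2 and Ptcra.

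**Figure D5:**
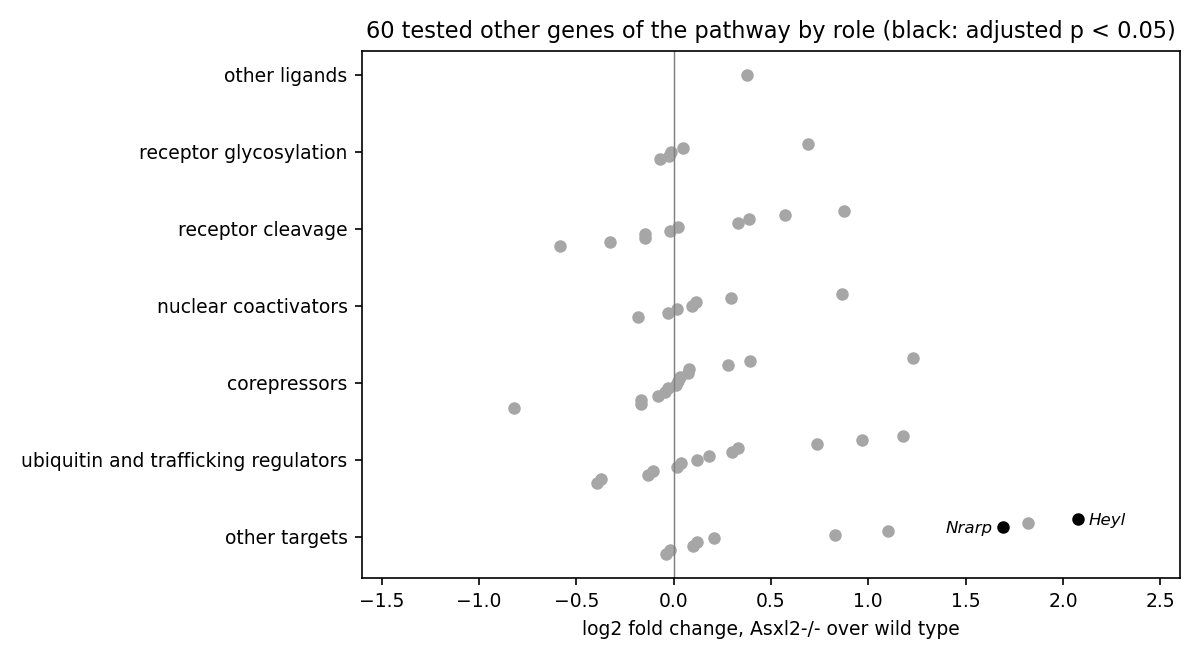
Log2 fold change of Asxl2-/- over wild type for the 60 tested other genes of the pathway, by role, 1 point a gene and black where the edgeR adjusted p was under 0.05. The black points are Nrarp at 1.69 and Heyl at 2.08, both among the targets, and most other genes lie within 1 log2 unit of 0.

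Markers of other cells that an LSK gate could hold were measured beside these genes, because in bulk RNA more cells of a type and more RNA per cell cannot be told apart. Over all tested genes, 2.04% passed higher and 0.304% lower in edgeR. At an unadjusted p under 0.05, 15.0% were higher and 12.6% lower. For T-lineage markers 1 of 11 tested passed, Thy1 (log2 fold change 1.84, edgeR adjusted p = 0.0279), and the summed level of the list was 76.0 to 98.4 CPM in Asxl2-/- and 69.9 to 99.5 CPM in wild type. At an unadjusted p under 0.05 in edgeR, 1 was higher (Thy1) and 1 lower, Cd8a, at 4.65, 6.60 and 5.78 CPM in Asxl2-/- against 10.6, 16.7 and 8.04 CPM in wild type, with no overlap (log2 fold change -1.08, adjusted p = 0.0942). Cd3e had 19 to 67 counts in every library, at 0.670 to 1.26 CPM in Asxl2-/- and 0.652 to 0.938 CPM in wild type. Endothelial markers summed to 161 to 218 CPM against 123 to 156 CPM, with 0 of 12 passing in edgeR and 7 higher at an unadjusted p under 0.05. Of these 12, 10 had a positive log2 fold change and the median was 0.90. The largest were Sox18 at 2.47 (edgeR adjusted p = 0.0506), Robo4 at 2.04 (0.0841), Esam at 1.76 (0.0689) and Emcn at 1.66 (0.0740), and Tie1 was at 1.09 (0.0837) and Tek at 0.83 (0.135). The 2 with a negative log2 fold change were Flt4 at -0.88 (edgeR adjusted p = 0.227) and Kdr at -0.31 (0.77). Pecam1 was at 0.20 (0.427). Esam, Tie1 and Tek are also expressed by blood stem cells. Sox17 and Cldn5, not tested, had 0 to 3 counts per library, and Cdh5 had 6 to 31. Stromal markers summed to 160 to 333 CPM against 64.6 to 209 CPM, overlapping, with 0 of 9 passing and 0 at an unadjusted p under 0.05. All 9 had a positive log2 fold change, and the median was 1.14. Pdgfrb, the receptor that marks pericytes, was at 22.5 to 28.1 CPM in Asxl2-/- and 14.4 to 24.7 CPM in wild type.

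The B-lineage, megakaryocyte and stem-cell lists held genes that passed, beside 2.04% higher and 0.304% lower over all tested genes. B-lineage markers summed to 184 to 196 CPM in Asxl2-/- and 43.5 to 66.1 CPM in wild type, with 8 of 9 higher in edgeR. Cd79a (log2 fold change 1.84), Ebf1 (2.19) and Vpreb3 (1.96) had the smallest p-values, and Blnk (2.38) and Igll1 (2.30) the largest fold changes. Megakaryocyte markers summed to 350 to 880 CPM against 175 to 384 CPM, with 5 of 9 higher (among them Vwf at 2.17, Ppbp at 2.72 and Gp5 at 0.72). The highest sum was that of Asxl2-/- replicate 2, the library with the most Notch3 and the only exon-count file of its group. The fitted log2 difference of exon-count over gene-count files was 1.45 for Notch3, 1.34 for Vwf, 1.43 for Ppbp and -0.096 for Gp5. Stem-cell markers summed to 203 to 228 CPM against 103 to 154 CPM, with 2 of 8 passing, both higher (Slamf1 at 1.52 and Ctnnal1 at 1.71). All 8 had a positive log2 fold change, with a median of 1.27. At an unadjusted p under 0.05 in edgeR 4 were higher, beside 15.0% of all tested genes. These included Hoxb5, the largest at 2.59 (edgeR adjusted p = 0.0779), and Fgd5 at 1.74 (0.0528). Erythroid markers ran the other way, at 236 to 334 CPM against 412 to 643 CPM, with 0 of 8 passing in edgeR. At an unadjusted p under 0.05, 5 were lower, beside 12.6% of all tested genes. Myeloid markers overlapped, at 2517 to 6661 CPM against 2590 to 7945 CPM, with 0 of 8 passing and 0 at an unadjusted p under 0.05. The part of these lists in the levels of Notch3, Jag2, Nrarp and Heyl was not tested.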

How the data were processed

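RNA from LSK cells of 3 Asxl2-/- and 3 wild type samples was made into poly(A)-selected, unstranded libraries, and the study's methods name 3 biological replicates per group. The deposited values were raw read counts by the authors on mm10 with RefSeq transcripts, per transcript in 3 files (33068 lines) and per exon in 3 files (317548 lines), not pooled. The submitters' processing notes list STAR, featureCounts and DESeq2, with no role or version given. Groups and replicate numbers came from the library titles.

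Each symbol was represented by the transcript with the longest summed exon length, and exon counts were summed over it. Counts were tested with edgeR 4.0.16 in R 4.3.3 (TMM scaling, filterByExpr, glmQLFit and glmQLFTest, file kind plus group, 3 residual degrees of freedom, two-sided, Benjamini-Hochberg over 14145 genes, threshold 0.05). Log2 CPM used a prior count of 2. Each script that tested many genes was first tested on simulated data. All pairs of libraries differed by more than counting noise (chi-square per degree of freedom 25.3 or more). Intervals on shares of counts are Wilson 95% intervals and cover counting error only.

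The Notch genes, the pathway and marker lists and the tests were chosen with earlier results of these data known. Named were all 10 Notch genes, each pathway gene that passed plus the up to 2 smallest p-values per role, and up to 3 passing genes per marker list. Aph1b, Aph1c, Psen2, Cd3e, Cd8a, Pdgfrb, Blnk, Igll1, Hoxb5, Fgd5 and the endothelial markers were named after their values were seen. Alternatives were DESeq2 1.42.0, limma-voom (limma 3.58.1), other scalings and filters, no file-kind covariate, the replicate number as a block, other transcripts, the longest exon, autosomes only, each kind of file alone, and each library left out in turn.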

Additional observations from a re-analysis of the deposited data

How the results depend on the processing

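Over 19 alternatives with a test, Notch3 and Jag2 were higher in each and passed an adjusted p of 0.05 in 13. Over all alternatives, 18 of the 22 named genes never changed sign. The 2 Notch genes called became 1 with library size alone, with TMM within each kind of file, without the file-kind covariate and with the replicate block without file kind. Notch3 had an adjusted p of 0.114 without the file-kind covariate. The 2 pathway genes called became 13 with DESeq2, and 1 with median-ratio scaling, library size alone, TMM within each kind of file, the longest exon or genes outside X and Y. The 331 genes called became 2329 with DESeq2 (1181 higher, 1148 lower) and 161 with library size alone. With single libraries left out, the calls were 9 to 1312 of all genes, 0 to 2 of the Notch genes and 0 to 5 of the pathway. The cause of these shifts was not tested.

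The replicate numbers are shared by the groups, but the labels do not say that a number marks a shared litter or day. Deviations of same-numbered samples from their group means correlated at 0.294, -0.00766 and -0.00277, and by this measure the samples were not treated as pairs; Asxl2-/- replicate 2 there correlated best with wild type replicate 3 (0.256), the same kind of file. With the file kind also removed the values were 0.635, 1 and 0.388, and every sample correlated best with its own number. These values are partly fixed by the fit, since Asxl2-/- replicate 2 and wild type replicate 2 are each the only library of their group and kind and so have equal residuals. Whether the numbers pair the samples is therefore not settled here. With the replicate block and file kind together, which leaves 1 residual degree of freedom, 5179 genes were called (2767 higher, 2412 lower), 5 Notch genes (adding Notch1, Notch4 and Jag1) and 23 pathway genes (18 higher, 5 lower).

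Reversals were few. Rbpj turned to 0.0083 with library size alone, 0.041 without the file-kind covariate, 0.060 with the replicate block without file kind, 0.033 in the exon-count files and, over single libraries left out, ran from -0.21 to 0.036. Pofut1 turned to 0.027, 0.037 and 0.034 with library size alone, without the covariate and with that block. In the exon-count files Dtx1 was -0.68 and Dner -2.16. With single libraries left out Dtx1 ran from -0.74 to 2.04 and Dner from -2.39 to 0.45. Depth limits Dll1, Dtx1, Dner and Jag1, which had few counts in each library.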
